A study of Arabidopsis thaliana with 18 samples.

Results

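SACL2 (AT5G50010), SACL1 (AT5G09460) and 3 S-adenosylmethionine decarboxylase genes, SAMDC (AT3G02470), AT3G25570 and AT5G15950, belong to the thermospermine and polyamine pathway of Arabidopsis thaliana and have transcripts known for upstream open reading frames. They were followed as the 5 listed genes, each through its feature assigned to exactly 1 gene, out of 16411 loci that had such a feature. Every one of the 5 had a single such feature, and none shared its values with another feature.

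Polyamines are small cations. S-adenosylmethionine decarboxylase makes the aminopropyl donor that is used to build spermidine, spermine and thermospermine, and its transcripts carry short upstream reading frames through which high polyamine levels lower translation of the enzyme. Thermospermine, made in developing xylem, acts on upstream reading frames too. It relieves the block that they place on translation of SAC51 and some relatives, from the SAC51-LIKE (SACL) basic helix-loop-helix (bHLH) proteins. Whether SACL2 is one of these relatives was not measured here. SACL proteins bind LONESOME HIGHWAY (LHW) and thereby compete with its bHLH partner TMO5, so that they restrain vascular cell proliferation. The arrays measured transcript signal and say nothing of translation.

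The 18 arrays formed 6 groups of 3, from roots of seedlings 4 days old. J0571 DEX and J0571 control were GFP-positive cells sorted from protoplasted roots of C24 plants with J0571>>pUAS-TMO5-GR, in which an enhancer trap known for ground tissue drives the fusion of TMO5 to the glucocorticoid receptor; they had spent 2 h with dexamethasone (DEX), which activates the fusion, or on MS medium alone. Root DEX+CHX, root CHX, root DEX and root MS were root tips of Col-0 plants with pRPS5A-TMO5-GR, whose promoter is active in dividing cells, after 1 h with DEX and cycloheximide (CHX, an inhibitor of protein synthesis), with CHX, with DEX or on MS medium alone. All 6 groups carried a TMO5-GR construct and no line without one was given DEX, so an effect of DEX itself and one of activated TMO5-GR cannot be told apart. The labels do not say whether repeats were separate cultures or how many plants were pooled, so p-values measure the spread between these arrays, which may be technical.

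Values are RMA signals on the log2 scale, on which a difference of 1 is a doubling. Within groups, arrays correlated with r from 0.982 to 0.992 across the 38408 features, and the array medians ran from 4.50 to 4.87. Among the 6 J0571 arrays, J0571 control replicate 3 stood apart on the first principal component (32.2% of the variance), at 57.2 against -33.7 to 10.1 for the others. Of the tissue markers, the ground tissue gene JKD was higher in J0571 control than in root MS (log2 difference 0.87, SE 0.11, adjusted p = 9.63e-06) and the root hair gene EXPA7 lower (-2.50, SE 0.18, adjusted p = 1.83e-08). Only 5 of 29 marker loci had a feature for exactly 1 gene, so the defining ground tissue genes other than JKD and AT1G62500 (CO2) could not be checked.

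SACL2 encodes one of the SAC51-like bHLH proteins. Its signal was 6.53, 7.11 and 7.36 in J0571 DEX and 6.76, 7.03 and 7.59 in J0571 control. In root tips it was 8.94, 8.97 and 9.01 in root DEX+CHX, 8.27, 8.60 and 8.55 in root CHX, 8.42, 8.71 and 8.86 in root DEX, and 8.09, 8.11 and 8.18 in root MS. The order of the group means was thus root DEX+CHX, root DEX, root CHX, root MS, J0571 control and J0571 DEX, spanning 1.97. Neighbours in this order did not overlap, except root DEX with root CHX (0.19 apart) and J0571 control with J0571 DEX (0.13 apart). Without overlap, 15.2% of all features lay higher in root DEX+CHX than in root DEX, and 14.5% higher in root CHX than in root MS. The share that lay lower in J0571 control than in root MS was 24.0%.

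SACL1, the other SAC51-like gene, had 7.52, 8.00 and 7.98 in J0571 DEX and 7.16, 7.71 and 8.02 in J0571 control. Root tips gave 9.46, 9.15 and 9.01 in root DEX+CHX, 9.01, 8.83 and 9.17 in root CHX, 8.66, 8.74 and 8.55 in root DEX, and 8.00, 8.40 and 8.34 in root MS. Root DEX+CHX and root CHX overlapped at the top. Root CHX lay clear of root DEX, and root DEX clear of root MS, while root MS, J0571 DEX and J0571 control overlapped with their neighbours. Root DEX lay above root MS without overlap for 4.68% of all features, and the share for root CHX above root DEX was not counted.

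SAMDC, the S-adenosylmethionine decarboxylase often called SAMDC1, was the steadiest of the 5 genes, with group means that spanned 0.22. Its arrays ran from 9.46 to 9.62 in J0571 DEX, from 9.33 to 9.52 in J0571 control, from 9.24 to 9.43 in root DEX+CHX, from 9.17 to 9.47 in root CHX, from 9.44 to 9.48 in root DEX and from 9.47 to 9.48 in root MS. All neighbours in the order of its means overlapped.

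AT3G25570, known as SAMDC3, had the widest span of group means among the 5 genes, 2.05. It stood at 2.83, 3.30 and 3.01 in J0571 DEX and 3.16, 3.19 and 3.45 in J0571 control. It stood at 5.23, 4.87 and 4.86 in root DEX+CHX, 4.46, 4.52 and 4.82 in root CHX, 5.30, 4.54 and 4.94 in root DEX, and 4.89, 5.13 and 5.28 in root MS. The root values lay around the array medians and all 6 J0571 values below them, so this signal is not shown to exceed background in J0571 cells. In root CHX it ran from 4.46 to 4.82 against array medians of 4.62 to 4.63, and is not shown to exceed background there either. AT5G15950, known as SAMDC2, had its higher means in J0571 cells, with 6.81, 6.76 and 6.86 in J0571 DEX and 7.27, 7.08 and 6.57 in J0571 control. Its root values were 6.66, 6.51 and 6.60 in root DEX+CHX, 6.59, 6.52 and 6.82 in root CHX, 6.10, 6.22 and 6.45 in root DEX, and 6.58, 6.15 and 5.79 in root MS. Only root DEX+CHX and root DEX, among neighbours in its order, did not overlap, and root MS replicate 1 stood as high as the CHX arrays. Root DEX+CHX lay above root DEX without overlap for 15.2% of all features.

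**Figure D1:**
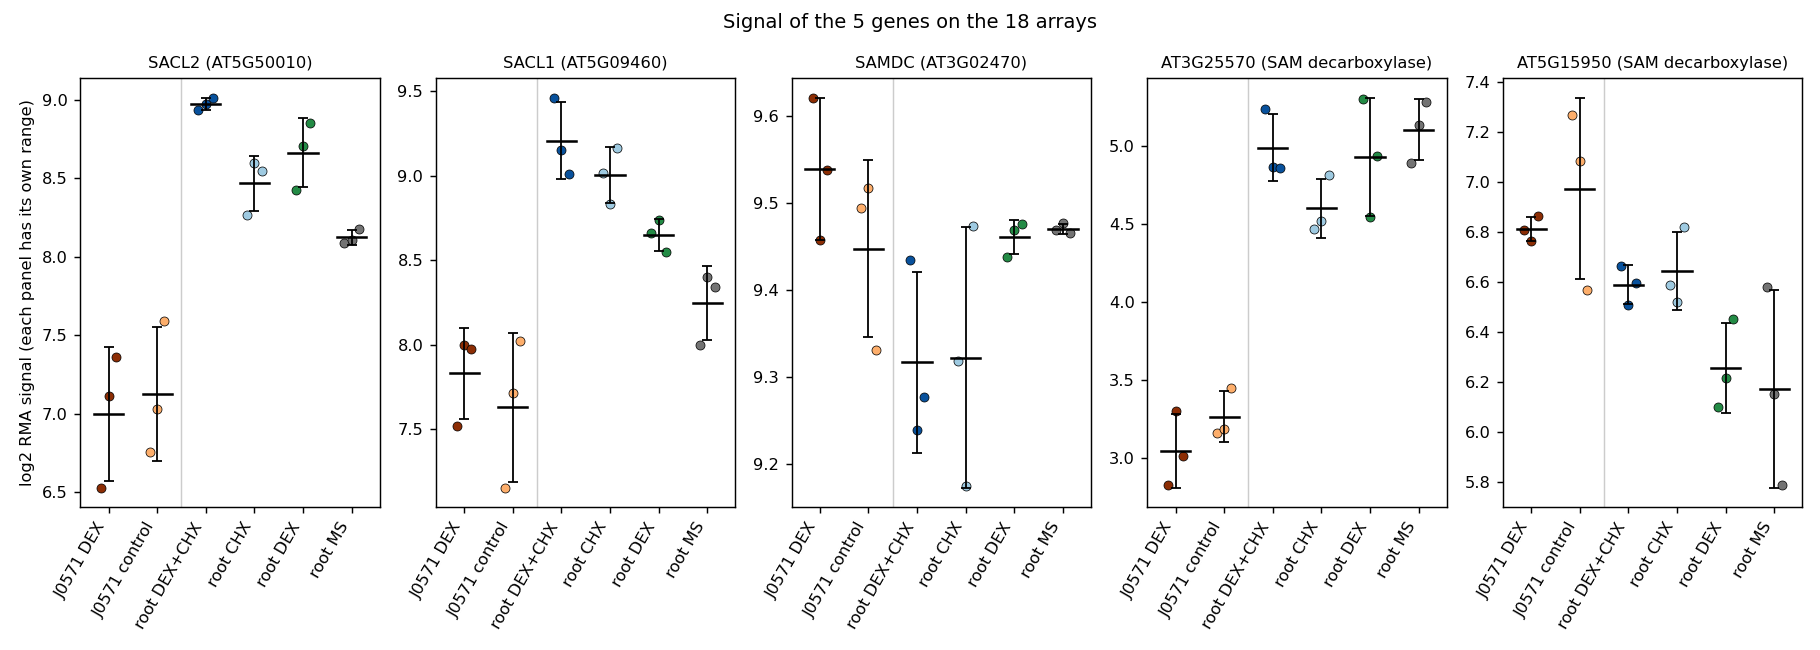
Log2 RMA signal (vertical axis, with its own range in each panel) of the 5 genes in the 6 groups; points are arrays, horizontal bars the means and whiskers the SD (n = 3). SACL2 and SACL1 stand highest in root DEX+CHX, SAMDC group means differ by at most 0.22, and AT3G25570 lies at 2.83 to 3.45 in J0571 cells and at 4.46 to 5.30 in root tips.

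The comparison of root DEX with root MS asks which transcripts differed 1 h after TMO5-GR was activated. SACL2 averaged 8.66 ± 0.22 in root DEX and 8.12 ± 0.05 in root MS (SD, n = 3 each), a log2 change of 0.54 (SE 0.12) or 1.45-fold. SACL1 averaged 8.65 ± 0.09 in root DEX and 8.25 ± 0.22 in root MS, a change of 0.40 (SE 0.15). For both genes every root DEX array lay above every root MS array, as held for 4.68% of all features. Neither passed limma's test over all features (adjusted p = 0.426 for SACL2 and 0.730 for SACL1). The decarboxylase genes had changes of -0.01 (SE 0.09) for SAMDC, -0.17 (SE 0.19) for AT3G25570 and 0.08 (SE 0.18) for AT5G15950, and their arrays overlapped.

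In this contrast limma called 0 of the 5 genes and 0% of features, while 6.17% of features and 2 of the 5 genes, SACL2 and SACL1, had an unadjusted p under 0.05. The median change was 0.08 over the 5 genes and 0.00 over all features. By unadjusted p (0.00114) SACL2 came after 79 of the 38408 features.

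With CHX in both groups the comparison asks which differences with DEX remain while protein synthesis is inhibited. SACL2 averaged 8.97 ± 0.04 in root DEX+CHX and 8.47 ± 0.18 in root CHX, a change of 0.50 (SE 0.12, unadjusted p = 0.00183), and the groups did not overlap. AT3G25570 averaged 4.99 ± 0.21 in root DEX+CHX and 4.60 ± 0.19 in root CHX, a change of 0.39 (SE 0.19), also without overlap. Its signal is not shown to exceed background in root CHX, so the size of this change is not measured. Groups set apart in this direction were found for 4.56% of all features. SACL1 had a change of 0.20 (SE 0.15), SAMDC of -0.01 (SE 0.09) and AT5G15950 of -0.05 (SE 0.18), each with overlapping arrays. Limma called 0 of the 5 genes and 0% of features (adjusted p = 1.00 for all 5), with 3.10% of features and 1 of the 5 genes, SACL2, at an unadjusted p under 0.05.

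SACL2 had nearly the same change without CHX (0.54) and with CHX (0.50). The test of that difference, the interaction of DEX and CHX, gave -0.04 (SE 0.17). Its 95% interval ran from -0.42 to 0.34, so differences within that range are not excluded. SACL1 had an interaction of -0.20 (SE 0.21, interval -0.66 to 0.26) and AT3G25570 one of 0.56 (SE 0.28, interval -0.05 to 1.17). The size of the latter is not measured either, since it rests on the root CHX signal of AT3G25570. No interaction passed (adjusted p = 0.999 for each of the 5 genes), 0% of features were called by limma, and 4.38% of features and 0 of the 5 genes had an unadjusted p under 0.05.

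Averaged over both states of CHX, 6 arrays with DEX against 6 without, SACL2 had a change of 0.52 (SE 0.09), with a 95% interval from 0.33 to 0.71. Its unadjusted p was 0.000103, and 3 features had a smaller one, of which AT4G38650 is the one with a gene name here. The adjusted p was 0.447, limma called 0% of features, and 4.68% of features had an unadjusted p under 0.05. Among the 5 genes SACL1 was the other one below that level, at 0.30 (SE 0.10, unadjusted p = 0.0151). AT3G25570 had 0.11 (SE 0.14), AT5G15950 0.01 (SE 0.13) and SAMDC -0.01 (SE 0.06, interval -0.15 to 0.14). In the 12 fits that left out 1 array the change of SACL2 stayed between 0.47 and 0.58.

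SACL2 was also 1 of 129 features (0.336% of all) that lay above their controls without overlap in both DEX comparisons. It was 1 of 43 features (0.112%) that did so in both DEX and both CHX comparisons. These 2 criteria were chosen after the values of SACL2 had been seen, so the shares are a description.

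**Figure D2:**
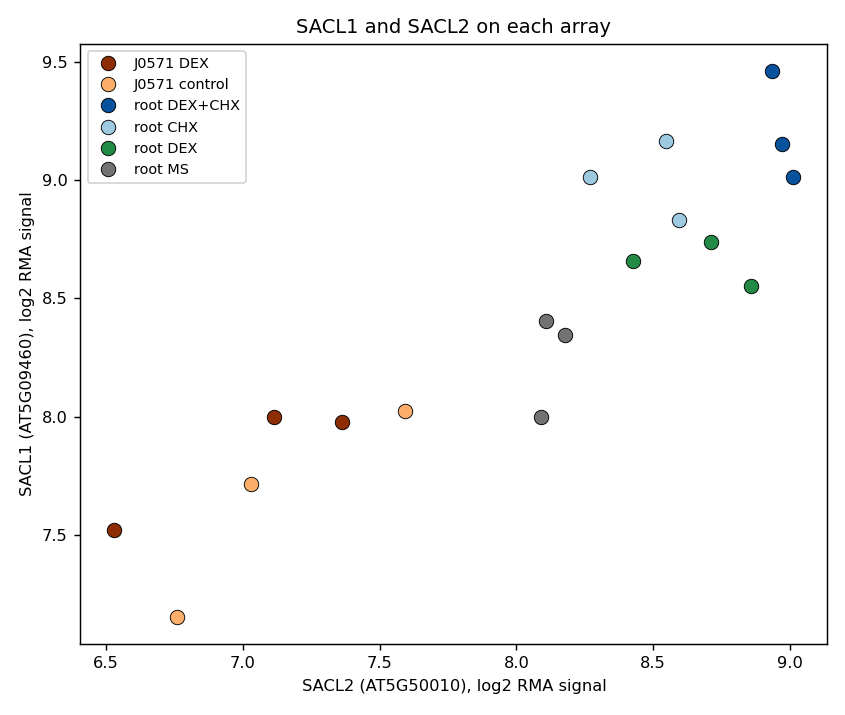
Log2 RMA signal of SACL1 (vertical axis) against SACL2 (horizontal axis), 1 point per array and 1 colour per group. Root DEX arrays lie at higher SACL2 than root MS arrays, root CHX arrays differ from root MS more along SACL1, and all J0571 arrays lie at SACL2 of 7.59 or less.

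CHX alone was compared with MS to ask what inhibited protein synthesis changed by itself. SACL1 rose with CHX, at 9.0 ± 0.17 in root CHX and 8.25 ± 0.22 in root MS, a log2 change of 0.76 (SE 0.15, 1.69-fold, adjusted p = 0.00324), and the arrays did not overlap, as for 14.5% of features in this direction. It was the 1 of the 5 genes to pass, in a comparison in which limma called 30.1% of all features, 10.4% higher and 19.7% lower. SACL2 averaged 8.47 ± 0.18 in root CHX and 8.12 ± 0.05 in root MS, a change of 0.35 (SE 0.12) whose adjusted p of 0.0540 missed the threshold. It passed in 6 of 10 other settings, with adjusted p from 0.0146 to 0.245 over the 10, and in 1 of 6 fits without 1 array, that without root CHX replicate 1 (0.0283).

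Among the decarboxylase genes AT5G15950 had a change of 0.47 with CHX (SE 0.18, adjusted p = 0.0727), with means of 6.64 ± 0.16 in root CHX and 6.17 ± 0.40 in root MS. It passed in 2 of 10 other settings, with adjusted p from 0.0248 to 0.156 over the 10. Of 6 fits without 1 array it passed in 1, with adjusted p up to 0.232 over the 6. That fit left out root MS replicate 1, the high array of that group (change 0.67, adjusted p = 0.00997). AT3G25570 had -0.50 (SE 0.19, adjusted p = 0.0763), with every root CHX array below every root MS array, as was the case for 30.2% of features. Its signal is not shown to exceed background in root CHX, so the size of this difference is not measured. SAMDC had -0.15 (SE 0.09, adjusted p = 0.257), and 0.02 once array medians were made equal. The median change was 0.35 over the 5 genes, -0.13 over all features and -0.05 over features of exactly 1 gene. The array medians were 4.62 to 4.63 in root CHX and 4.76 to 4.85 in root MS. Making the medians equal added that difference between array medians to every gene, and SACL1, SACL2 and AT5G15950 then passed. Over all features the split of calls turned with it, at 61.2% of calls higher with equal medians and 49.1% with quantile normalization, against 34.5% as deposited.

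The same comparison in the presence of DEX, root DEX+CHX against root DEX, used other arrays. SACL1 rose again, at 9.21 ± 0.23 in root DEX+CHX and 8.65 ± 0.09 in root DEX, a change of 0.56 (SE 0.15, adjusted p = 0.0140) with no overlap. Limma called 33.7% of all features, 11.6% higher and 22.1% lower, and 1 of the 5 genes. Of these calls 34.5% were higher, against 63.1% with equal array medians and 49.2% with quantile normalization. The call was lost without root DEX+CHX replicate 1, the array with the highest SACL1 signal (change 0.43, adjusted p = 0.0538). SACL2 had a change of 0.31 (SE 0.12, adjusted p = 0.0744) and AT5G15950 one of 0.33 (SE 0.18, adjusted p = 0.188), both without overlap, as for 15.2% of features. SACL1 and SACL2 lay above their controls without overlap in both CHX comparisons, as did 11.3% of features. SAMDC had -0.14 (SE 0.09, adjusted p = 0.264), with every root DEX+CHX array below every root DEX array, as for 30.9% of features, and 0.07 with array medians equal. AT3G25570 had 0.06 (SE 0.19, adjusted p = 0.849).

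Beside these changes the early stress gene STZ, a zinc finger factor and the 1 of 4 genes of its list with a feature here, rose by 3.13 with CHX alone (SE 0.29, adjusted p = 2.18e-05) and by 3.35 with CHX in the presence of DEX (SE 0.29, adjusted p = 1.11e-05). Its change with DEX was -0.15 (SE 0.29) without CHX and 0.07 (SE 0.29) with CHX, neither called. Its part in the changes of SACL1 with CHX was not tested.

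**Figure D3:**
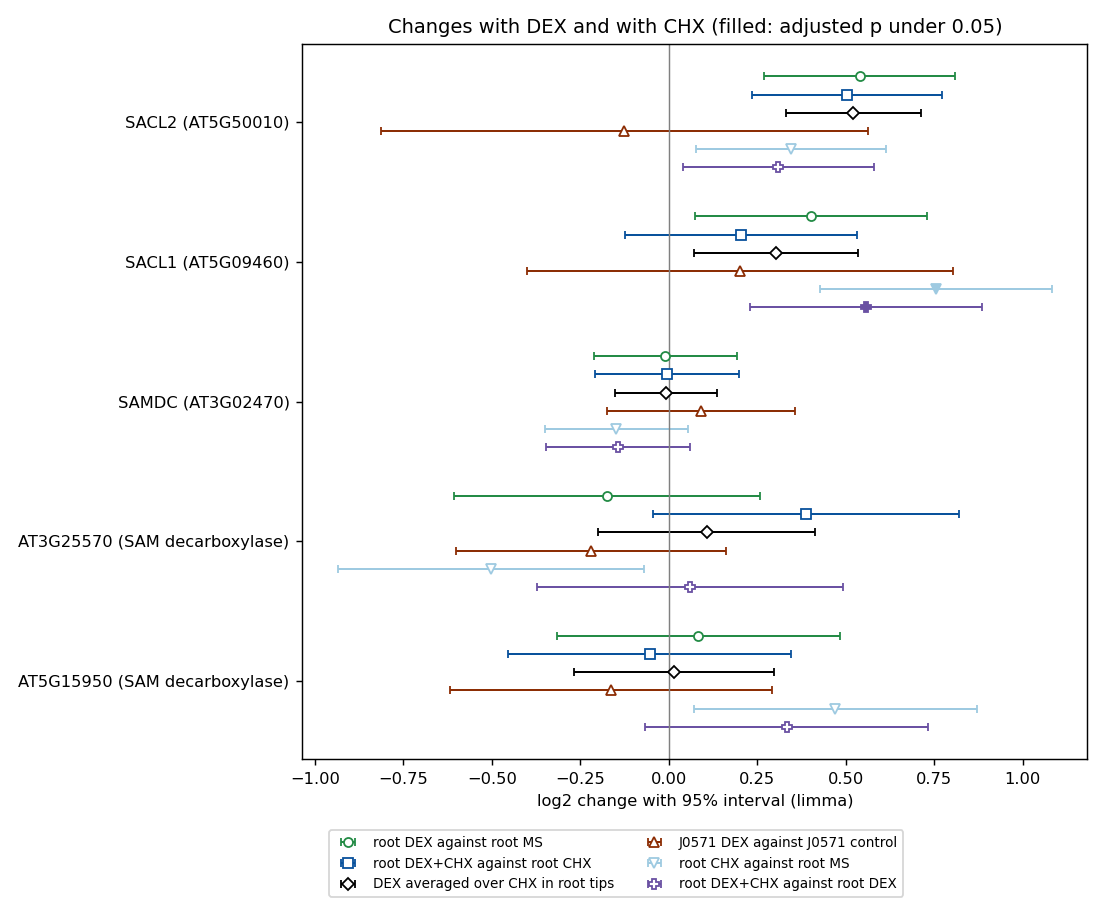
Log2 change with its 95% interval (horizontal axis, limma) of the 5 genes in 3 DEX comparisons of root tips, the DEX comparison of J0571 cells and 2 CHX comparisons; filled symbols have an adjusted p under 0.05. SACL1 with CHX carries both filled symbols, at 0.76 and 0.56, and the intervals of SACL2 lie above 0 in all 5 root comparisons shown. These 5 comparisons share arrays, the intervals are not adjusted for the number of features, and no symbol of SACL2 is filled.

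In sorted J0571 cells 2 h of DEX was compared with MS medium. SACL2 averaged 7.0 ± 0.43 in J0571 DEX and 7.13 ± 0.42 in J0571 control, a change of -0.13 (SE 0.29, interval -0.81 to 0.56). SACL1 averaged 7.83 ± 0.27 in J0571 DEX and 7.63 ± 0.44 in J0571 control, a change of 0.20 (SE 0.25, interval -0.40 to 0.80). The decarboxylase genes had 0.09 (SE 0.11) for SAMDC, -0.22 (SE 0.16) for AT3G25570 and -0.16 (SE 0.19) for AT5G15950. All 5 genes overlapped between the groups and 0 passed (adjusted p from 0.914 to 0.971), where limma called 0.0338% of features. At an unadjusted p under 0.05 there were 5.83% of features and 0 of the 5 genes.

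Arrays of the J0571 groups differed among themselves more than this. In both groups the replicate 1 array had the lowest SACL2 and the lowest SACL1 signal. It also had the highest signal of RCA, a photosynthesis gene of leaves and the 1 of 3 genes of its list with a feature here, at 7.87 against 5.84 and 5.74 on the other J0571 DEX arrays, and at 8.20 against 6.66 and 6.47 on the other J0571 control arrays. The part of these arrays in the SACL result was measured by leaving out each J0571 array in turn: the change of SACL2 then ran from -0.31 to 0.11 and that of SACL1 from -0.04 to 0.40, with adjusted p from 0.815 to 0.999. Without J0571 control replicate 3, SACL2 was at 0.11 and SACL1 at 0.40, the decarboxylase genes lay between -0.36 and 0.03, and none of the 5 passed.

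The response of SACL2 in J0571 cells minus its response in root tips was -0.66 (SE 0.30, interval -1.30 to -0.03, unadjusted p = 0.0420). It did not pass (adjusted p = 0.780), nor did that of SACL1 at -0.20 (SE 0.28), SAMDC at 0.10 (SE 0.13), AT3G25570 at -0.04 (SE 0.27) or AT5G15950 at -0.25 (SE 0.27). Without J0571 control replicate 3 the difference of SACL2 was -0.43 (adjusted p = 0.780). Limma called 0.0521% of features and 0 of the 5 genes in this test of the difference, in which 6.24% of features had an unadjusted p under 0.05. Line, ecotype, time, protoplasting and sorting all differ between the experiments and cannot be told apart.

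The 2 groups without DEX or CHX differed for 4 of the 5 genes, J0571 control against root MS, where limma called 48.9% of all features, 26.5% higher and 22.4% lower. Of the calls 54.2% were higher, and 71.7% with array medians equal. AT3G25570 was lower in J0571 control, at 3.27 ± 0.16 against 5.10 ± 0.19 in root MS, a log2 difference of -1.84 (SE 0.19, adjusted p = 1.03e-06). Since its J0571 signal is not shown to exceed background, the size of this difference is not measured. SACL2 was lower too, at 7.13 ± 0.42 against 8.12 ± 0.05 in root MS, a difference of -0.998 (SE 0.21, adjusted p = 0.00106). For both, the groups did not overlap, as for 24.0% of features in this direction. SACL1 was lower by less, at -0.62 (SE 0.20, adjusted p = 0.0192), with overlap between J0571 control replicate 3 and root MS replicate 1.

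AT5G15950 was higher in J0571 control, at 6.97 ± 0.36 against 6.17 ± 0.40 in root MS, a difference of 0.80 (SE 0.19, adjusted p = 0.00255). Its groups overlapped, with J0571 control replicate 3 at 6.57 and root MS replicate 1 at 6.58. SAMDC had -0.02 (SE 0.09, adjusted p = 0.858). With array medians made equal SAMDC was instead called higher in J0571 control (0.22, adjusted p = 0.0436) and SACL1 lost its call (-0.37, adjusted p = 0.130). Without J0571 control replicate 1, root MS replicate 2 or root MS replicate 3 the call of SACL1 was lost as well (adjusted p = 0.107, 0.0711 and 0.0589). Without J0571 control replicate 3 the same 4 genes passed, with AT3G25570 at -1.93, SACL2 at -1.23, SACL1 at -0.81 and AT5G15950 at 1.003. In the fit on the 6 arrays of these groups alone, neither SACL1 (adjusted p = 0.0885) nor AT5G15950 (adjusted p = 0.0505) passed. STZ was higher in J0571 control by 1.09 (SE 0.26, adjusted p = 0.00284), and RCA had -0.05 (SE 0.51); the part of either in these differences was not tested. Since RNA was taken from tissue or from sorted cells in bulk, fewer cells of a type and less RNA per cell cannot be told apart.

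**Figure D4:**
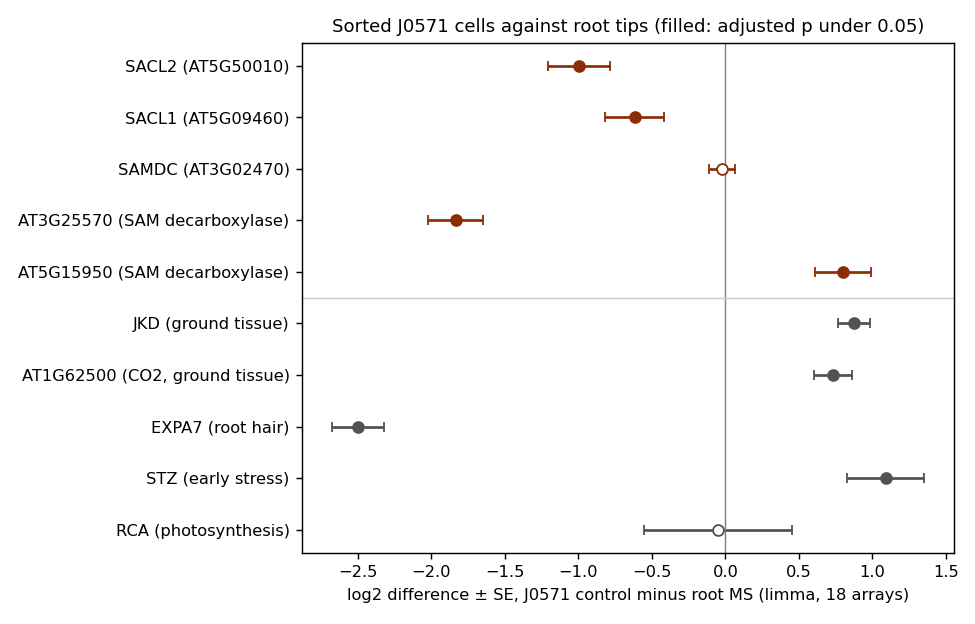
Log2 difference ± SE (horizontal axis, limma over 18 arrays), J0571 control minus root MS, for the 5 genes above the line and 5 marker genes below it; filled symbols have an adjusted p under 0.05. AT3G25570 lies at -1.84 and SACL2 at -0.998, AT5G15950 at 0.80, SAMDC at -0.02 and the root hair gene EXPA7 at -2.50.

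Other genes of the pathway were taken from lists with 59 loci in all, 14 of which had a feature for exactly 1 gene, the 5 genes above and 9 more. SAC51, SACL3, the thermospermine synthase ACL5, BUD2 (SAMDC4), the spermidine and spermine synthases, the polyamine oxidases and the polyamine transporters had none and were not analysed here. Of the TMO5 and LHW bHLH factors, to which the partners of SACL proteins belong, 3 of 8 were measured. With DEX, 0 of these 3 passed, without or with CHX (medians 0.05 and -0.05, against 0.00 for all features both times). With CHX the members lay on both sides of 0: AT2G41130 (T5L3), a relative of TMO5, had 0.40 without overlap (SE 0.18, unadjusted p = 0.0445) and AT3G56770 (T5L2), another relative, -0.29 (SE 0.13, unadjusted p = 0.0457), each with an adjusted p of 1.00. In root DEX+CHX against root CHX, 4.56% of all features lay higher without overlap and 3.10% had an unadjusted p under 0.05. LHW itself had -0.04 (SE 0.10) without CHX and -0.05 (SE 0.10) with CHX in root tips. In J0571 cells 0 of the 3 passed with DEX, but LHW had -0.29 (SE 0.10, unadjusted p = 0.0230, adjusted p = 0.791) and AT2G41130 -0.46 (SE 0.15, unadjusted p = 0.0184, adjusted p = 0.782). For both, every J0571 DEX array lay below every J0571 control array, as for 6.03% of features. An unadjusted p under 0.05 was found for 5.83% of features in this comparison.

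With CHX, 2 of these 3 bHLH genes rose and 0 fell, both without and with DEX. Of all features 10.4% were called higher and 19.7% lower without DEX, and 11.6% and 22.1% with DEX. AT3G56770 averaged 5.02 ± 0.22 in root CHX and 4.04 ± 0.03 in root MS, a change of 0.97 (SE 0.13, adjusted p = 0.000286), and rose by 0.58 in the presence of DEX (SE 0.13, adjusted p = 0.00563). AT3G56770 signals ran from 4.02 to 4.08 in root MS and from 3.99 to 4.26 in root DEX, below the array medians (4.76 to 4.87). These signals are not shown to exceed background, so the sizes of the differences of AT3G56770 from these groups are not measured. AT2G41130 rose by 0.83 (SE 0.18, adjusted p = 0.00504) and by 1.19 in the presence of DEX (SE 0.18, adjusted p = 0.000493). LHW had -0.18 (SE 0.10) and -0.20 (SE 0.10), neither called, though the first passed without root MS replicate 1 (-0.28, adjusted p = 0.0481). In J0571 control against root MS, LHW (0.52, SE 0.09, adjusted p = 0.000174) and AT3G56770 (0.57, SE 0.20, adjusted p = 0.0261) were higher, while SACL2 and SACL1 were lower, and AT2G41130 had 0.14 (SE 0.17). Of all features 26.5% were called higher in this comparison. The call of AT3G56770 was lost with array weights (0.39, adjusted p = 0.137), in the fit of only these groups (adjusted p = 0.124) and in 4 of the 6 fits without 1 array. These were the fits without root MS replicate 1 (adjusted p = 0.0602) or 2 (0.0597), without J0571 control replicate 1 (0.0722), and without J0571 control replicate 3, where the difference was 0.33 (0.145).

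Of 13 other transcripts known for conserved upstream reading frames 4 were measured, and they did not move as 1 group. With DEX, 0 of 4 passed, without or with CHX. AT1G73600 (NMT3), a relative of the phosphoethanolamine methyltransferases, had the change farthest from 0, at -0.32 without CHX (SE 0.10, unadjusted p = 0.00756, adjusted p = 0.613). Every root DEX array lay below every root MS array, as for 4.58% of features, and 6.17% of features had an unadjusted p under 0.05. Its root DEX signals, 4.38 to 4.61, lay below the array medians (4.82 to 4.87), so the size of this change is not measured. With CHX alone 0 rose and 1 fell, where 10.4% of all features were called higher and 19.7% lower. The count depends on the scaling: AT1G73600 also passed as higher with quantile normalization (0.31, adjusted p = 0.0355) and with array medians equal (0.35, adjusted p = 0.0276), and bZIP44 with array medians equal (0.37, adjusted p = 0.0379). PMEAMT, a phosphoethanolamine methyltransferase, averaged 8.64 ± 0.08 in root CHX and 9.19 ± 0.13 in root MS, a change of -0.56 (SE 0.09, adjusted p = 0.00117).

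In the presence of DEX, PMEAMT fell again (-0.46, SE 0.09, adjusted p = 0.00288; -0.25 and not called with array medians equal, adjusted p = 0.0858) and AT1G73600 rose by 0.35 (SE 0.10, adjusted p = 0.0173). Limma called 11.6% of all features higher and 22.1% lower in this comparison. AT1G73600 ran from 4.38 to 4.61 in root DEX, below the array medians (4.82 to 4.87), and is not shown to exceed background in that group. The call of AT1G73600 was lost without root DEX+CHX replicate 2 (adjusted p = 0.0591) or root DEX replicate 3 (adjusted p = 0.0670). The bZIP factors BZIP53, at 0.25 (SE 0.15), and bZIP44, at 0.24 (SE 0.12), did not pass there, but both did with array medians equal (adjusted p = 0.0291 and 0.0119). The median of the 4 genes was 0.19 with CHX alone and 0.25 with CHX in the presence of DEX, against -0.13 for all features in both.

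Of 12 genes for the synthesis and salvage of S-adenosylmethionine, the substrate of the decarboxylases, 2 were measured, both acireductone dioxygenases of the methionine salvage cycle. Neither passed with DEX or with CHX alone, except ATARD2 with CHX alone once root MS replicate 3 was left out (-0.40, adjusted p = 0.0318). In root DEX+CHX against root DEX, ATARD2 fell by 0.64 on the log2 scale (SE 0.15, adjusted p = 0.00746), and ARD4 had -0.10 (SE 0.09). Of all features 22.1% were called lower there. ATARD2 stood at 4.73, 4.58 and 4.53 in root DEX+CHX, around the array medians of that group (4.61 to 4.65). It is not shown to exceed background in that group, so the size of its fall is not measured. In J0571 control against root MS, where 22.4% of all features were called lower, both were lower, ARD4 by -1.03 (SE 0.11, adjusted p = 2.6e-06) and ATARD2 by -0.64 (SE 0.19, adjusted p = 0.0113), and the call of ATARD2 was not stable. It was lost with array medians equal (-0.39, adjusted p = 0.0854), with quantile normalization (-0.42, adjusted p = 0.0955), in the fit of only these groups (adjusted p = 0.0973), without root MS replicate 1 (-0.49, adjusted p = 0.0599) and without J0571 control replicate 2 (-0.45, adjusted p = 0.0658). The J0571 control means, 4.44 for ARD4 and 4.39 for ATARD2, lay below the array medians of that group (4.53 to 4.58). These signals are not shown to exceed background, so the sizes of both differences are not measured.

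**Figure D5:**
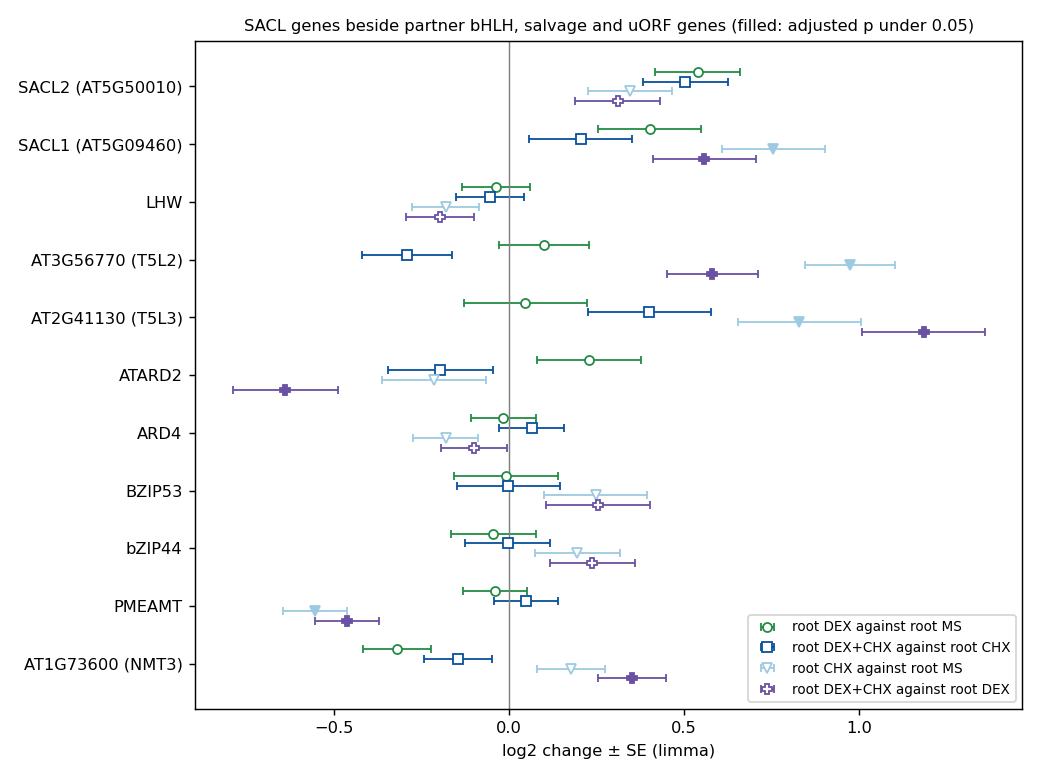
Log2 change ± SE (horizontal axis, limma) of SACL2, SACL1 and the 9 other measured pathway genes in both DEX and both CHX comparisons of root tips; filled symbols have an adjusted p under 0.05. AT3G56770 and AT2G41130 rise with CHX beside SACL1, PMEAMT falls, and no symbol of a DEX comparison is filled.

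Likeness of pattern was described by Pearson's r with the 16406 other loci. Points in these correlations share the groups and the normalization, so r holds differences between groups as well as between repeats. Across the 12 root arrays PID2, a kinase related to PINOID, was nearest to SACL1 (r = 0.973). PID2 averaged 6.34 ± 0.17 in root DEX+CHX, 5.92 ± 0.13 in root CHX, 5.40 ± 0.13 in root DEX and 4.73 ± 0.19 in root MS, the order that SACL1 also had. In root MS its signals ran from 4.52 to 4.89, around the array medians (4.76 to 4.85), and are not shown to exceed background. AT4G09300 (0.955) and AT5G47800 (0.952) came next. The nearest to SACL2 were AT5G11720 (0.869), AT4G02660 (0.850) and AT3G01400 (0.848).

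For SAMDC the nearest across root arrays were AT3G05050 (0.931), AT3G28550 (0.926) and AT1G68500 (0.925). AT3G25570 was most like AT1G23460 (0.911), AT1G26540 (0.901) and AT4G13690 (0.882), and AT5G15950 most like AT1G55700 (0.946), AT2G31920 (0.918) and AT4G30680 (0.906). Root group means were 2.87 to 3.49 for AT1G68500, 3.29 to 3.71 for AT1G26540 and 2.84 to 3.02 for AT4G13690. These lay below the array medians and are not shown to exceed background, so likeness to these 3 loci is not shown to be one of transcripts. AT4G30680 averaged 4.65 in root DEX and 4.49 in root MS, and AT2G31920 4.90 and 4.79. These means lay around or below the array medians (4.76 to 4.87), and neither locus is shown to exceed background in these groups. Over all 18 arrays, where the gap between J0571 cells and root tips enters, other genes led: AT1G78480 for SACL2 (0.958), TRM27 for SACL1 (0.960), AT3G55750 for SAMDC (0.879), AT2G24580 for AT3G25570 (0.977) and AT4G18030 for AT5G15950 (0.899).

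Among the 5 genes, SACL2 and SACL1 had r = 0.908 over 18 arrays and 0.698 over the 12 root arrays. Once each group's mean was subtracted, r was -0.16 over the root arrays and 0.91 over the 6 J0571 arrays. AT3G25570 and AT5G15950 had r = -0.714 over 18 arrays and -0.459 over the root arrays. SAMDC and AT3G25570, with group means subtracted, had -0.94 over the 6 J0571 arrays and 0.41 over the root arrays. In J0571 cells SAMDC ran only from 9.33 to 9.62 and AT3G25570 is not shown to exceed background. The r of -0.94 is therefore no measure of a relation between the 2 transcripts. The limit on AT3G25570 also holds for its r over 18 arrays, and its limit in root CHX holds for its r over the root arrays.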

How the data were processed

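Total RNA from root tips or sorted cells was biotin-labelled and hybridised to 1-colour arrays, 18 in all, after whole-transcript cDNA synthesis, per the labels' protocols. The deposited values are log2 signals that the authors made with RMA, per the submitters' processing notes; no source used here gives its version, the probe annotation or which arrays were normalized as a set. For arrays, their number limits the precision.

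Features were named through the platform's table, updated by Entrez identifier through TAIR10.1: 16722 of 38408 belong to exactly 1 gene, 759 to several and 20927 to none named here, and 16574 were linked to a locus. Where a locus had more than 1 feature, the brightest on average stands for it. No sequence or coordinate is given. Differences were tested on the log2 values with limma 3.58.1 in R 4.3.3 (package data.table, version 1.17.8): 1 mean per group, eBayes, two-sided, Benjamini-Hochberg adjustment over all 38408 features, threshold 0.05. The 12 root arrays, the 6 J0571 arrays and, between experiments, all 18 arrays were fitted together. The median residual SD was 0.19, 0.20 and 0.21 in these fits. The procedure was tested on simulated data.

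The 5 genes and the lists were chosen with earlier results of these data known, and so give no independent support. Named are the 5 genes, every list gene with a feature for exactly 1 gene, and per gene the 3 loci of highest r. Alternatives were quantile normalization, equal array medians, the lowest 25% of features left out, trend and robust options, array weights, other sets of arrays, identical features once, only features of 1 gene, a replicate block and each array left out. Repeat numbers did not pair the arrays by the rule used (every correlation of deviations over 0.1).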

Additional observations from a re-analysis of the deposited data

How the results depend on the processing

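No call of the 5 genes changed in any of the 4 DEX comparisons, the interaction or the difference between experiments: 0 of the 5 passed under each alternative run. In root CHX against root MS, where 1 gene passed, 2 did with quantile normalization (SACL2 at 0.36), without the lowest 25% of features, with trend and robust options, with only features of 1 gene and with the replicate block (SACL2 at 0.35 in these 4), and with array weights (AT5G15950 at 0.48). With array medians equal it was 3 (SACL2 at 0.52, AT5G15950 at 0.64). Leaving out 1 array gave 1 to 2 genes, with changes of 0.28 to 0.45 for SACL2, 0.63 to 0.84 for SACL1, and 0.28 to 0.67 for AT5G15950. In root DEX+CHX against root DEX the count of 1 became 2 with quantile normalization (SACL2 at 0.36), trend and robust options or the replicate block (SACL2 at 0.31 in both), and 3 with array medians equal (SACL2 at 0.53, AT5G15950 at 0.55). Without 1 array it was 0 to 2, with SACL1 at 0.43 to 0.65 and SACL2 at 0.19 to 0.41. In J0571 control against root MS the count of 4 became 2 in the fit of these 2 groups alone (SACL1 at -0.62 and AT5G15950 at 0.80, neither past the threshold). With array medians equal SACL1 was at -0.37 and no longer passed, and SAMDC reversed to 0.22 and passed. Without 1 array the count was 3 to 4 and SACL1 lay at -0.81 to -0.38. Equal medians shift CHX and J0571 arrays upward by construction, and fits of fewer arrays have fewer degrees of freedom; for the other settings the cause was not tested. J0571 DEX against J0571 control called 13 features and 0 to 68 under the alternatives. Among 785 recomputed values of the 5 genes 45 changed sign, 1 of them past the threshold. Same-numbered repeats correlated in their deviations from group means at -0.24 to 0.20 in root groups and 0.02 to 0.25 in J0571 groups, so the numbers were not taken as pairs, and the replicate block removed no call of the 5 genes. Low signals, as of AT3G25570 in J0571 cells and in root CHX, are not shown to exceed background, which limits what their differences measure.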
